A study of Mus musculus with 12 samples.

Results

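Long intergenic non-coding RNAs (lincRNAs) that are well expressed in the mouse liver were compared between fibrotic livers of mice given Pien Tze Huang (PZH), a traditional Chinese medicine preparation, and fibrotic livers of control mice. Members were selected on their mean level: they are the transcripts that GENCODE M21 annotates as lincRNA and that averaged at least 1 FPKM over all 12 livers (FPKM scales the sequenced fragments of a transcript by its length and by the depth of the library). Malat1, Neat1, AY036118, Gm42418, H19, Meg3, Rian, Mirg, Gas5, Zfas1 and the Snhg genes were left out. The rule took 265 of the 1431 long non-coding RNA transcripts that matched the annotation (1 other did not match), which belong to 217 genes, while 947 further lincRNA transcripts had a mean under 1 FPKM. In 31 members the mean of the control mice was under 1 FPKM, and in 21 that of the PZH mice was, so that these members entered through the other group and had to differ, whereas 213 reached 1 FPKM in each group. The members just inside the threshold were A430110L20Rik (1.0012 FPKM), Gm32281 (1.0047 FPKM) and 1810044D09Rik (1.0050 FPKM), and the transcripts just outside it were A430046D13Rik (0.9934 FPKM), Gm37494 (0.9923 FPKM) and Gm36251 (0.9902 FPKM).

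RNA-seq was performed on the livers of 12 mice taken after 8 weeks, 6 in each group. The strain is C57BL/8 in the sample labels and C57BL/6J in the methods of the study, and the mice were male and 6 weeks old at the start. All 12 mice received 2 intraperitoneal injections per week of carbon tetrachloride (CCl4) mixed with corn oil, at 10 µl of the mixture per g of body weight. The PZH group was given 0.25 mg per g of PZH into the stomach every day and the control group was given water, so both groups carried the CCl4 injury and no uninjured liver was compared here. CCl4 is converted in hepatocytes into reactive products, and repeated dosing scars the liver.

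LincRNAs are transcribed by RNA polymerase II and are usually capped, spliced and polyadenylated like mRNAs, but they are annotated as genes of their own, mostly between protein-coding genes, and hold no long conserved reading frame. Some act near their own gene, some bind proteins or microRNAs (miRNAs) elsewhere in the cell, and others serve as the precursor from which a miRNA or a small nucleolar RNA is cut. In the liver, hepatocytes, stellate cells, macrophages and endothelial cells each transcribe their own sets of lincRNAs. In whole tissue, fewer cells of a type and less RNA per cell cannot be told apart.

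The promoter windows of 6 members are shown first, because these transcripts headed the rises and the falls among the members that had such a window. Each window holds the 250 bases before and the 50 bases after the start site in RefSeq (GRCm38.p6), written 5′ to 3′ along the strand of the gene. The first 3 belong to transcripts that were higher in PZH mice and the last 3 to transcripts that were lower, and capitals mark matches to the motifs named beneath.
Gm5524, chr1:27883796-27884095, plus strand: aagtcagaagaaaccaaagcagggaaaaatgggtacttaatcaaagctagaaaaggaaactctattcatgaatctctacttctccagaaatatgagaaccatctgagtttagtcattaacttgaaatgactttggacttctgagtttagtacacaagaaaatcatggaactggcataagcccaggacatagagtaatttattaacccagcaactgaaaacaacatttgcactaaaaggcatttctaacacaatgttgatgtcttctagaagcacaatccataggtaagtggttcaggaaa
C730036E19Rik, chr1:151137784-151138083, plus strand: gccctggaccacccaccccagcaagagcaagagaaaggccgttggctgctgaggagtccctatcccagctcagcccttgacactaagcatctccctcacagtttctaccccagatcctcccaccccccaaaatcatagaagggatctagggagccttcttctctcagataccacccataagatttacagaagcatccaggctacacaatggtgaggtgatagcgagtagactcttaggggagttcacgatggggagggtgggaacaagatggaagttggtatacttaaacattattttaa
4833411C07Rik, chr8:10899672-10899971, plus strand: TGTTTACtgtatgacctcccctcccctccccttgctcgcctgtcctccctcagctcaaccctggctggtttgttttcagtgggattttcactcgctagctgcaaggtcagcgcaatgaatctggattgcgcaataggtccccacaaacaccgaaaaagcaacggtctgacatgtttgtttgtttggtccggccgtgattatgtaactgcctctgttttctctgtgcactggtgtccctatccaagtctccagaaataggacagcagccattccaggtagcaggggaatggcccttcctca
Wincr1, chr4:89050057-89050356, plus strand: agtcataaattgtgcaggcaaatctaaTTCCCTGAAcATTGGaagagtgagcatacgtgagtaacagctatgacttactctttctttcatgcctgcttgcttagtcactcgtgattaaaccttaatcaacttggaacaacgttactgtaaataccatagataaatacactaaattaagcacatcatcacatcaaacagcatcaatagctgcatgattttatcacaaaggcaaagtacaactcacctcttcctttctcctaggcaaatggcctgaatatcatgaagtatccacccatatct
1110038B12Rik, chr17:34952419-34952718, minus strand: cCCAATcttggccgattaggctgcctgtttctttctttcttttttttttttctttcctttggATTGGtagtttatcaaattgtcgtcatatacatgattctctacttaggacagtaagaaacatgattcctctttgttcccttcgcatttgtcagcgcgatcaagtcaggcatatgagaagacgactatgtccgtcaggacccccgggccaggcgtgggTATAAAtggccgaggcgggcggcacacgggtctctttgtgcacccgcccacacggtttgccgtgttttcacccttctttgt
1810058I24Rik, chr6:35252460-35252759, plus strand: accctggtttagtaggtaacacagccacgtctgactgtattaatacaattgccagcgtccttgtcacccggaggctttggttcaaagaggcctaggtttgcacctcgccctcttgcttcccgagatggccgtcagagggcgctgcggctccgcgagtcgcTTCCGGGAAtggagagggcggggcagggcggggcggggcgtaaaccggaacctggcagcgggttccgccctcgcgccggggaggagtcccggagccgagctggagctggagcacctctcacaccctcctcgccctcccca

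On both strands of these windows 8 motifs were searched for, namely the TATA box (TATAAA), the CCAAT box (CCAAT), the E-box (CACGTG), a C/EBP motif (TTGCNNCAA), a forkhead motif (TGTTTAC), an HNF4 motif (CAAAGTCCA), an AP-1 motif (TGANTCA) and a STAT motif (TTCNNNGAA). The window of 4833411C07Rik held the forkhead letters at −250 from the start site. In the Wincr1 window the STAT letters stood at −223 and the CCAAT box, read on the other strand, at −213. The 1110038B12Rik window held a TATA box at −31 and CCAAT boxes at −249 and, on the other strand, at −188. The STAT letters also stood in the 1810058I24Rik window, at −90, whereas the windows of Gm5524 and C730036E19Rik held none of these 8 strings. Of 99 distinct windows that matched a member (131 transcripts of 95 genes), 19.2% held a TATA box and 32.3% a CCAAT box, against 13.6% and 37.4% of all 32817 RefSeq windows. The E-box was found in 11.1% of the members' windows and 7.15% of all windows, the forkhead letters in 5.05% and 3.65%, the STAT letters in 6.06% and 8.29%, the AP-1 letters in 8.08% and 7.81%, the C/EBP letters in 3.03% and 2.08%, and the HNF4 letters in 1.01% and 0.475%. A match describes the letters of a window and does not show that a factor binds there.

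Most members were expressed at a low level. The median of the members' mean levels was 1.82 FPKM, 147 members had a mean under 2 FPKM, 104 had a mean from 2 to 10 FPKM, and 14 had a mean of 10 FPKM or more. There were 8 members listed at 0 in at least 1 mouse. The summed level of all members other than Gm26917 ranged from 781 to 917 FPKM in the PZH mice and from 780 to 893 FPKM in the control mice, so that the total of the group overlapped between treatments. The median coefficient of variation between mice was 24.1% among PZH mice and 23.6% among control mice, close to the 22.8% and 20.7% of protein-coding transcripts with a mean of at least 1 FPKM. A typical member had 2 exons, a spliced length of 1236 nt and a GC content of 47.1%, and 17% of the members had a single exon, against 1073 nt, 47.5% and 12% among the lincRNA transcripts under the threshold.

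On log2(FPKM + 1) values, the scale of every log2 fold change given here, mice of the same group resembled each other more across the 265 members (correlations of 0.875 to 0.949) than mice of different groups (0.734 to 0.924). The members that entered through a single group (31 and 21) had to differ, so part of this separation came with the selection. Correlations over the 213 other members alone were not taken. PZH mouse 2 and control mouse 2 stood nearest to the opposite group, with mean correlations to it of 0.862 and 0.855. Some cell type markers differed between the groups as well, where 12.7% of all protein-coding genes were higher and 32.1% lower by adjusted p. The summed level of 10 hepatocyte markers was 44157 to 60583 FPKM in PZH mice and 26631 to 40304 FPKM in control mice, 5 of the 10 being higher and 2 lower by adjusted p. Most of these sums was albumin, whose gene Alb averaged 38437 FPKM in PZH mice and 24059 FPKM in control mice. The 2 lower markers were Fgb (914 against 2086 FPKM) and Hnf4a (135 against 166 FPKM). The 5 markers of dividing cells were all higher (sums of 6.19 to 16.6 against 1.77 to 3.70 FPKM), whereas the sums for lymphocytes overlapped (2.70 to 5.11 against 2.98 to 5.08 FPKM, 0 of 8 passing), as did those for stellate cells and myofibroblasts (342 to 442 against 247 to 385 FPKM, 3 of 10 higher and 2 lower) and for macrophages (244 to 352 against 220 to 288 FPKM, 5 of 10 higher and 2 lower). Of 8 endothelial markers 0 were higher and 2 lower, and of 5 listed cholangiocyte markers 0 were higher and 1 lower. Of 5 neutrophil markers 0 passed, and of 5 erythroid markers 1 was higher and 0 lower. No listed marker of any cell type was at 0 in all mice. The part of these cell types in the lincRNA differences was not tested.

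Between PZH and control mice, 14 members (5.28%) were higher and 6 (2.26%) were lower by at least 2-fold with P under 0.05, the limits of the study, with the unadjusted P taken here from limma. Over all long non-coding transcripts, 1.19% were higher and 0.419% were lower by that criterion, so 20 of the 23 transcripts called in the whole table were members. On the log2(FPKM + 1) scale a transcript under 1 FPKM in both groups cannot exceed 2-fold, and 10 of the 14 higher members and 3 of the 6 lower members were among those that entered through a single group. Among the 213 members with a mean of at least 1 FPKM in each group, 4 (1.88%) were higher and 3 (1.41%) lower. The 4 were Gm5524, Gm48633, Gm6135 and a BC024386 transcript, and the 3 were 1110038B12Rik, Gm15611 and Gm49768. Without control mouse 3 the number of lower members was 10, and without both PZH mouse 2 and control mouse 2 the counts were 15 higher and 10 lower, all 20 given above being among them. Protein-coding transcripts with a mean of at least 1 FPKM passed the criterion in 6.17% of cases, 2.4% upwards and 3.77% downwards. At a Benjamini-Hochberg adjusted p under 0.05 without a fold limit, 51 members (19.2%, 44 genes) were higher and 42 (15.8%, 38 genes) lower, against 12.2% and 8.38% of all long non-coding transcripts and 8.53% and 22.6% of the protein-coding transcripts, and 172 members did not pass. Among the members that passed, 24 of the higher and 11 of the lower had entered through a single group. The 213 members at 1 FPKM or more in each group held 27 higher (12.7%), a share near that of the whole table, and 31 lower (14.6%). Dividing each library by its median ratio, which moves the median log2 fold change of all genes by 0.11 and of all long non-coding transcripts by 0.04, gave 74 higher and 30 lower members instead, and 81 of the 93 members given above passed in both.

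**Figure D1:**
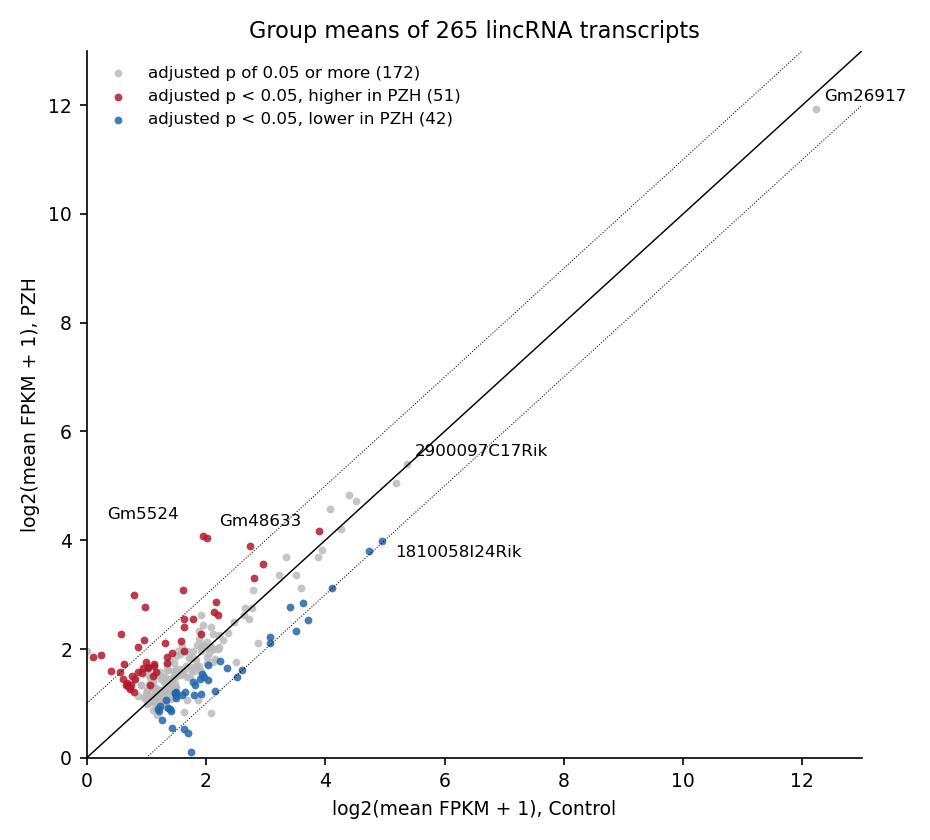
Mean level of each of the 265 lincRNA transcripts in the 6 control mice (x axis) and the 6 PZH mice (y axis), both as log2(mean FPKM + 1), with the line of equal level and dotted lines at a 2-fold difference. The 51 red and 42 blue points passed an adjusted p of 0.05, most of them lie at low levels, and the most abundant transcripts, Gm26917 and 2900097C17Rik, lie within the dotted lines.

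The members were split about evenly by sign, 131 being above 0 and 134 below, with a median log2 fold change of −0.01, while the median was 0.01 for all long non-coding transcripts and −0.15 for protein-coding transcripts with a mean of at least 1 FPKM. In 29 members (10.9%) every PZH mouse was above every control mouse and in 20 (7.55%) every PZH mouse was below, against 7.47% and 4.47% of all long non-coding transcripts. All 14 members called higher and 5 of the 6 called lower were among these. Among the 213 members at 1 FPKM or more in each group, the numbers without overlap were 11 (5.16%) and 14 (6.57%). Members that were higher by adjusted p had a median of 3 exons and a length of 1131 nt, those that were lower had 2 exons and 1480 nt, and single-exon transcripts made up 5.88% and 9.52% of them, against 22.1% of the members that did not pass.

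Gm5524 had the largest rise. This 2-exon transcript (ENSMUST00000185409, chr1:27884046-27902396, plus strand, GRCm38) ranged from 10.2 to 19.1 FPKM in PZH mice (median 16.5) and from 1.07 to 3.83 FPKM in control mice (median 2.96). No PZH mouse overlapped a control mouse, and the log2 fold change was 2.16 (SE 0.20, adjusted p = 5.8e-05). Its nearest protein-coding gene, Gm597, lies 874 kb away. Gm48633 (ENSMUST00000218264, chr12:7911889-7950061, minus strand) measured 12.3 to 19.8 FPKM with PZH (median 14.9) and 1.02 to 5.67 FPKM without (median 2.31). It also separated the groups, and its log2 fold change was 2.15 (SE 0.28, adjusted p = 0.000233). It lies 27.6 kb from the divergent gene Apob, which codes for the apolipoprotein of very-low-density lipoprotein and whose own log2 fold change was 0.13 (adjusted p = 0.244).

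C730036E19Rik (ENSMUST00000188305, chr1:151138034-151142345, plus strand) was found at 2.98 to 10.2 FPKM in PZH mice, with a median of 7.11, and at 0.47 to 1.06 FPKM in control mice, with a median of 0.668. The lowest PZH mouse exceeded the highest control mouse, and the log2 fold change was 2.11 (SE 0.23, adjusted p = 9.67e-05). For 4833411C07Rik (ENSMUST00000207914, chr8:10899937-10903893, plus strand) the levels were 3.06 to 8.72 FPKM (median 6.04) with PZH and 0.294 to 1.88 FPKM (median 0.692) without. The groups did not overlap here either (log2 fold change 1.80, SE 0.26, adjusted p = 0.000496). Irs2, an adaptor of the insulin receptor, is its nearest protein-coding gene at 80.8 kb and had a log2 fold change of 0.62 that missed the threshold (adjusted p = 0.0706). C730036E19Rik and 4833411C07Rik both entered through the PZH mice, so a difference between their groups was required by the selection.

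Gm30784 and its neighbour rose side by side. The lincRNA (ENSMUST00000204491, chr6:141866358-141875220, plus strand) measured 2.1 to 5.36 FPKM in the PZH mice (median 4.28) and 0.135 to 0.823 FPKM in the control mice (median 0.514). All PZH mice were above all control mice, and the log2 fold change was 1.68 (SE 0.17, adjusted p = 7.01e-05). Gm30784, too, entered through the PZH mice. Slco1a4, which codes for an organic anion transporter, begins 10.2 kb away on the other strand and ranged from 15.3 to 44.0 FPKM (median 32.4) with PZH and from 2.74 to 16.8 FPKM (median 6.96) without. Its groups overlapped slightly, and its log2 fold change was 2.06 (adjusted p = 0.000413).

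Gm31583 (ENSMUST00000229403, chr16:24085083-24090089, minus strand) ranged from 1.19 to 3.77 FPKM in PZH mice (median 3.03) but stayed between 0.0496 and 0.375 FPKM in control mice (median 0.124). The separation was complete (log2 fold change 1.61, SE 0.18, adjusted p = 0.00012). Gm31583 entered through the PZH mice, so its groups had to differ. Bcl6, a transcriptional repressor, lies 96.2 kb away and had a log2 fold change of 0.66 (adjusted p = 0.141). Gm6135 was measured at 4.04 to 11.9 FPKM (median 6.89) against 0.929 to 3.66 FPKM (median 1.96), apart by 1.48 on the log2 scale (SE 0.24, adjusted p = 0.00119). The other rises called by fold were smaller. Gm40438 (log2 fold change 1.22), Gm31522 (1.18), both transcripts of Gm12354 (1.19 and 1.07), the most abundant BC024386 transcript (1.19) and 1 transcript of D230017M19Rik (1.04) had adjusted p values from 0.000142 to 0.00398. Just under the fold limit were AC132455.2 (1.0 and 0.83 for its 2 transcripts), 2310001H17Rik (0.83 and 0.71) and a BC049987 transcript (0.77), all with adjusted p under 0.05, although the sum of the BC049987 transcripts did not pass (0.37, adjusted p = 0.0694).

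**Figure D2:**
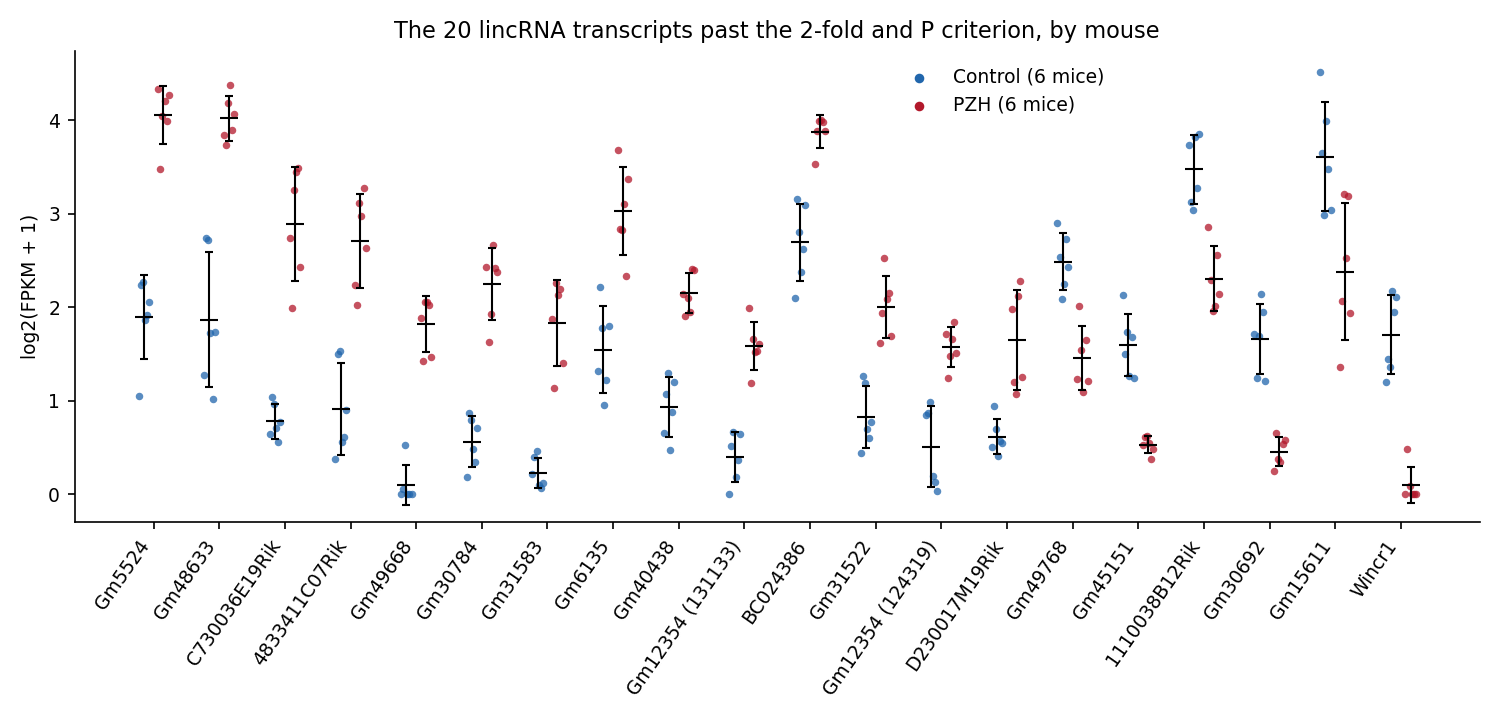
Level of the 20 lincRNA transcripts past the 2-fold and P criterion, as log2(FPKM + 1), in each of the 6 control mice (blue) and 6 PZH mice (red), with the mean and SD of each group as black bars. The 14 transcripts on the left were higher in PZH mice and the 6 on the right were lower, and the points of the groups overlap in Gm15611 alone.

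Wincr1, a lincRNA named for its induction by Wnt signalling, had the largest fall. Its transcript (ENSMUST00000146678, chr4:89050308-89084511, plus strand) ranged from 1.3 to 3.51 FPKM in the control mice (median 2.30), whereas the PZH mice had a median of 0 and a highest value of 0.394 FPKM. Every PZH mouse was below every control mouse, and the value fell by 1.61 on the log2 scale (SE 0.17, adjusted p = 7.01e-05). Wincr1 entered through the control mice, so its groups had to differ. Its nearest protein-coding gene, Mtap, of the methionine salvage pathway, had a log2 fold change of −0.16 (adjusted p = 0.0729). AL805899.1, another member 111.8 kb from Wincr1 on the opposite strand, was lower as well, at 1.27 to 2.20 FPKM (median 1.66) with PZH against 2.51 to 3.94 FPKM (median 3.11).

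1110038B12Rik carries the small nucleolar RNA Snord52 within its gene. Its main transcript (ENSMUST00000172501, chr17:34950243-34952468, minus strand) measured 2.90 to 6.25 FPKM in PZH mice, with a median of 3.67, and 7.20 to 13.4 FPKM in control mice, with a median of 10.5. The groups were apart, and the log2 fold change was −1.17 (SE 0.19, adjusted p = 0.00104). Hspa1b, an inducible Hsp70 chaperone whose gene is 3.97 kb away on the same strand, was at 2.45 to 11.0 FPKM (median 4.29) against 8.81 to 24.5 FPKM (median 16.1). It fell by 1.47 on the log2 scale (adjusted p = 0.00196), with some overlap between the groups.

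The 4 remaining members that were called lower were each found in all mice. Gm30692 ranged from 0.182 to 0.574 FPKM with PZH (median 0.375) and from 1.31 to 3.43 FPKM without (median 2.26), apart by −1.20 on the log2 scale (SE 0.15, adjusted p = 0.000188). Gm45151 measured 0.295 to 0.536 FPKM (median 0.447) against 1.37 to 3.38 FPKM (median 2.02), and Gm49768 measured 1.13 to 3.04 FPKM (median 1.63) against 3.24 to 6.48 FPKM (median 4.59). Both were apart between the groups, with log2 fold changes of −1.07 and −1.03 (adjusted p = 0.000152 and 0.0012). Gm30692 and Gm45151 had entered through the control mice. Gm15611 overlapped between the groups, at 1.57 to 8.28 FPKM (median 3.97) in PZH mice and 6.94 to 21.8 FPKM (median 10.9) in control mice. Its log2 fold change was −1.23 (SE 0.34, adjusted p = 0.0223), and its adjusted p was 0.0504 without PZH mouse 6 and 0.0506 without control mouse 4. Crot, a peroxisomal carnitine acyltransferase gene 1.08 kb from Gm15611, had a log2 fold change of 0.17 (adjusted p = 0.211).

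Several abundant members fell by just under 2-fold. 1810058I24Rik (ENSMUST00000136110, chr6:35252732-35262022, plus strand) ranged from 9.14 to 19.5 FPKM in PZH mice (median 15.2) and from 24.6 to 32.8 FPKM in control mice (median 30.8). The lowest control mouse exceeded the highest PZH mouse, and the log2 fold change was −0.99 (adjusted p = 0.000495), while its other member transcript, at −0.45, did not pass (adjusted p = 0.116). The 4 transcripts of Gm8883 summed to 14.4 to 19.6 FPKM (median 15.7) with PZH and 28.9 to 41.2 FPKM (median 34.0) without. The sum was lower by a log2 value of −1.05 (adjusted p = 2.98e-05), and Fn1, the fibronectin gene 235 kb away, had a log2 fold change of −0.46 (adjusted p = 0.0312).

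Gm19619 was at 1.65 to 2.88 FPKM (median 2.03) with PZH and 3.78 to 7.72 FPKM (median 4.88) without. It did not overlap (log2 fold change −0.96, adjusted p = 0.000565), and Btc, the gene of the EGF-family ligand betacellulin 73.8 kb away, was apart between the groups too, at 1.12 to 2.06 against 2.37 to 6.24 FPKM (log2 fold change −1.06, adjusted p = 0.00027). Gm26825 was found at 7.07 to 19 FPKM (median 13.7) against 15.2 to 46.0 FPKM (median 23.6), overlapping, with a log2 fold change of −0.91 (adjusted p = 0.0307). Leaving out any of PZH mice 3, 4 and 6 or control mice 4, 5 and 6 gave adjusted p values of 0.0509 to 0.0679. Steap1, 32.2 kb from Gm26825, ranged from 0.306 to 0.693 FPKM with PZH and from 1.38 to 2.13 FPKM without (log2 fold change −0.87, adjusted p = 2.46e-05).

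Of the 6 members with the highest mean, 5 did not pass the test, the exception being 1810058I24Rik. Gm26917 (chr17:39843013-39846341), by far the highest at 3313 to 4390 FPKM in PZH mice (median 3902) and 3731 to 5373 FPKM in control mice (median 5001), had a log2 fold change of −0.29 (adjusted p = 0.0664). After median-ratio scaling the value was −0.11 (adjusted p = 0.395). Gm26917 passed without control mouse 1 (adjusted p = 0.0194), after equal-sum scaling (0.0485) and with the replicate number as a block (0.0463). It ends 12 bp before an annotated ribosomal RNA gene, CT010467.1, and 617 bp from Gm42418, and the part of ribosomal RNA reads in its level was not tested. 2900097C17Rik, also known as Norad, which binds Pumilio proteins, ranged from 33.8 to 45.2 FPKM (median 42.2) in PZH mice and from 38.7 to 41.5 FPKM (median 40.4) in control mice. The groups overlapped throughout, and its log2 fold change was 0.03 with a 95% interval of −0.11 to 0.17 (adjusted p = 0.789), though it passed after median-ratio scaling (adjusted p = 0.0071). Gm42047 (−0.16, adjusted p = 0.723), 1810008I18Rik (0.38, adjusted p = 0.158, and 0.0401 without PZH mouse 2) and AW112010 (0.25, adjusted p = 0.436) overlapped as well.

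Among lincRNAs with a described role, 1700020I14Rik, also known as Cyrano, which directs the breakdown of miR-7, had a narrow spread. Its long transcript (8300 nt) ranged from 15.8 to 17.5 FPKM in PZH mice (median 17.1) and from 13 to 14.8 FPKM in control mice (median 14). The groups were apart, by 0.26 on the log2 scale (SE 0.04, adjusted p = 0.00144). The adjusted p was 0.125 with a pseudocount of 0.1 and 0.0832 with a mean-variance trend in the limma fit. The other member transcript of this gene, at 0.25 on the log2 scale, did not pass. Jpx and Ftx, which act at the X-inactivation centre, had log2 fold changes of 0.17 (adjusted p = 0.161, and 0.0201 after median-ratio scaling) and −0.10 (adjusted p = 0.393) in their member transcripts. Summed over all lincRNA transcripts listed for the gene, Jpx was at 0.04 (adjusted p = 0.76), whereas Ftx was lower, at 2.14 to 2.82 FPKM (median 2.45) against 2.54 to 3.61 FPKM (median 3.12), with a log2 fold change of −0.25 (adjusted p = 0.0182). The 10 Lncpint transcripts, from a p53-induced locus, had log2 fold changes from −0.76 to 0.41 and none passed, although the lowest of them did without PZH mouse 4 (adjusted p = 0.0454). The sum over all listed Lncpint transcripts overlapped between the groups, at 12 to 38.3 FPKM (median 25.8) against 20.4 to 47.6 FPKM (median 25.4), with a log2 fold change of −0.11 (adjusted p = 0.788).

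Other members of that list were lower in PZH mice. Epb41l4aos, which also carries a small nucleolar RNA, measured 3.98 to 8.61 FPKM with PZH (median 5.79) and 7.76 to 11.7 FPKM without (median 9.57), overlapping slightly, with a log2 fold change of −0.67 (adjusted p = 0.0099, and 0.0523 after median-ratio scaling). Both transcripts of Carmn, a smooth muscle lincRNA that lies next to the miR-143 and miR-145 genes, were lower, with log2 fold changes of −0.45 (adjusted p = 0.0129) and −0.28 (adjusted p = 0.0425), and both overlapped between the groups. The second of these values and that of Mir142hg, a transcript of blood cells (−0.30, adjusted p = 0.0421), lost the threshold in 14 and 12 of the 20 other settings tried, among them leaving out PZH mouse 1, 4 or 6 or control mouse 4, 5 or 6 (adjusted p up to 0.0916).

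Several genes contributed more than 1 transcript. Of the 217 genes, 31 had at least 2 member transcripts, 7 of them with values of both signs, and 0 with transcripts that passed in opposite directions. The 4 BC024386 transcripts (chr7) all passed, with log2 fold changes of 0.56 to 1.19, and the gene's sum was 1.15 higher on the log2 scale (adjusted p = 5.1e-05). In Gm49668 the change was in a single transcript. ENSMUST00000231947 (chr17:15422055-15434965, minus strand) ranged from 1.69 to 3.17 FPKM in PZH mice (median 2.88) and had a median of 0 and a maximum of 0.436 FPKM in control mice. It was apart between the groups (log2 fold change 1.73, SE 0.14, adjusted p = 2.28e-05), whereas the other Gm49668 transcript had a log2 fold change of 0.06 (adjusted p = 0.606). The first of these transcripts entered through the PZH mice. As a share of the 2, the first made up 42.0% to 62.8% in PZH mice (median 57.7%) and 0% to 17.3% in control mice (median 0%). Levels of transcripts that share exons are estimates, in which StringTie divides the common fragments among the transcripts.

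**Figure D3:**
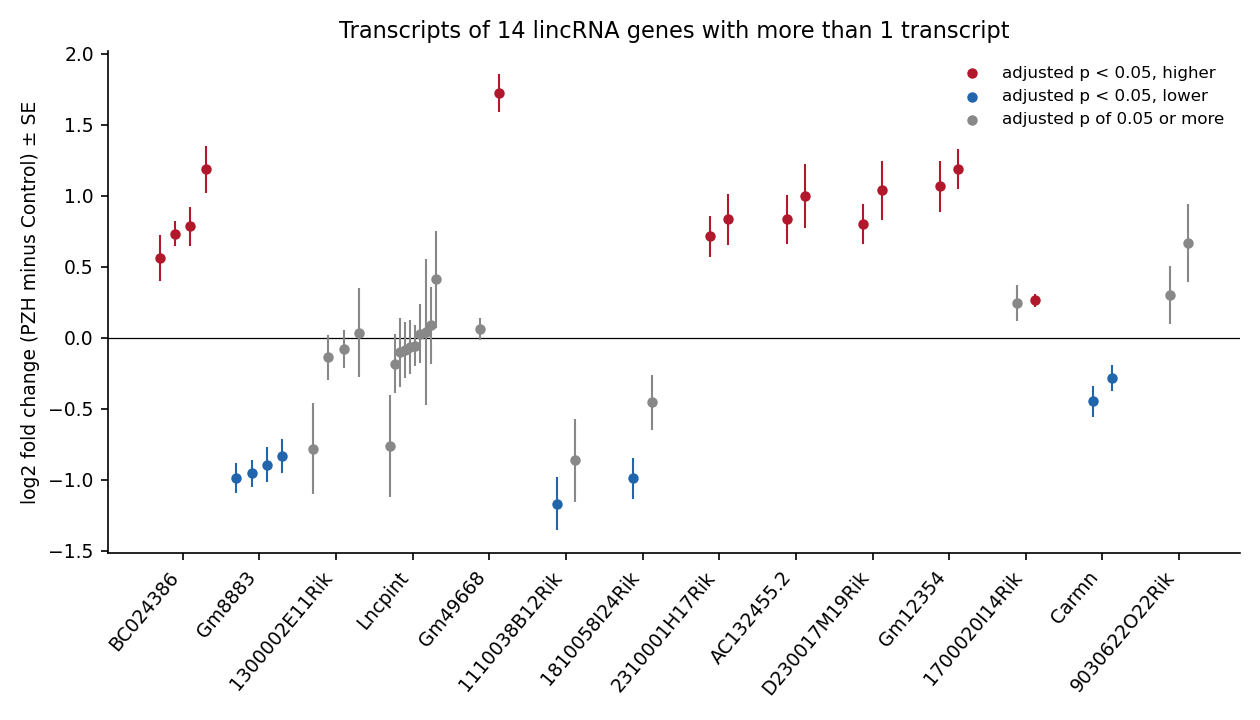
Log2 fold change (PZH minus control, with its SE as a bar) of each member transcript in 14 lincRNA genes that have more than 1, coloured by whether the adjusted p was under 0.05. The 4 BC024386 transcripts lie above 0 and the 4 Gm8883 transcripts below, the 10 Lncpint transcripts scatter around 0, and the Gm49668 transcripts lie apart at 1.73 and 0.06.

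Members were then set beside their nearest protein-coding gene. Of the 265, 68 overlap such a gene, 61 lie within 5 kb of one and 28 lie more than 100 kb away. A listed neighbour was found for 228 members (174 distinct genes), of which 23 (13.2%) were higher and 50 (28.7%) lower by adjusted p, against 12.7% and 32.1% of all 14188 protein-coding genes. The lincRNA and its neighbour had the same sign in 147 of 228 pairs (64.5%), against 729 of 1263 (57.7%) for all long non-coding transcripts. The share was 83.0% (39 of 47) where the lincRNA overlaps the gene on the opposite strand and 64.3% (9 of 14) where it overlaps on the same strand. It was 54.5% (30 of 55) for divergent, 61.0% (50 of 82) for tandem and 63.3% (19 of 30) for convergent neighbours. Shares by arrangement were not taken over all long non-coding transcripts. The library kit kept the strand, but the strand setting used when fragments were assigned is not given in the sources used here, so reads of overlapping genes may not have been told apart.

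By direction, the 44 higher members with a listed neighbour stood beside 13 higher, 4 lower and 27 neighbours that did not pass, with a median neighbour log2 fold change of 0.06. The 36 lower members stood beside 1 higher, 19 lower and 16 that did not pass, with a median of −0.27. In these counts a gene beside several member transcripts is counted once for each. As distinct genes, the higher members had 36 neighbours, 9 of them higher and 4 lower. The lower members had 32 distinct neighbours, 1 higher and 16 lower. Over all protein-coding genes, 12.7% were higher and 32.1% lower. The 148 members that did not pass had a median neighbour value of −0.07, and the median over all protein-coding genes was −0.11. After median-ratio scaling, 38 neighbours were higher and 30 lower in place of 23 and 50.

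D230017M19Rik and Pecr, which codes for a peroxisomal enoyl-CoA reductase, overlap on opposite strands. The lincRNA's called transcript (ENSMUST00000181382, chr1:72264693-72267178, plus strand) ranged from 1.10 to 3.86 FPKM with PZH (median 2.16) and from 0.322 to 0.920 FPKM without (median 0.474), and Pecr from 61.6 to 99.8 FPKM (median 88.1) and from 22 to 45.4 FPKM (median 34.3). Both were apart between the groups, with log2 fold changes of 1.04 (adjusted p = 0.00398) and 1.32 (adjusted p = 8.44e-05). The D230017M19Rik transcript entered through the PZH mice, so its rise was required by the selection. Clec2d, a lectin gene 21.9 kb from 2310001H17Rik, was at 182 to 295 against 64.4 to 139 FPKM (log2 fold change 1.16, adjusted p = 0.000356). Gm36435 (0.75, adjusted p = 0.00494) lies 10.5 kb from Sc5d, an enzyme gene of cholesterol synthesis (1.09, adjusted p = 0.0024). Gm36435 likewise entered through the PZH mice.

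Pairs in which both were lower included Gm17300 (−0.70) with Rcc1 (−0.62), the exchange factor of Ran, Gm26764 (−0.35) with Sptlc2 (−0.86), a subunit of serine palmitoyltransferase, Gm26603 (−0.49) with the formin gene Fmnl2 (−0.87), and Gm17767 (−0.75) with Nabp1 (−0.86), which binds single-stranded DNA. The first 3 of these pairs overlap on opposite strands. Gm26764 entered through the control mice, so it had to be lower. Other pairs gave unlike values. Lncppara had a log2 fold change of 0.01 (adjusted p = 0.944), at 1.40 to 2.20 FPKM (median 1.84) against 1.35 to 2.39 FPKM (median 1.67), while Ppara, the nuclear receptor of fatty acid oxidation 27.5 kb away, was apart at 37.5 to 48.9 against 13.4 to 30.8 FPKM (0.92, adjusted p = 0.000534). Gm40438 was higher (1.22) beside the lower Dact1 (−0.33, adjusted p = 0.0367).

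**Figure D4:**
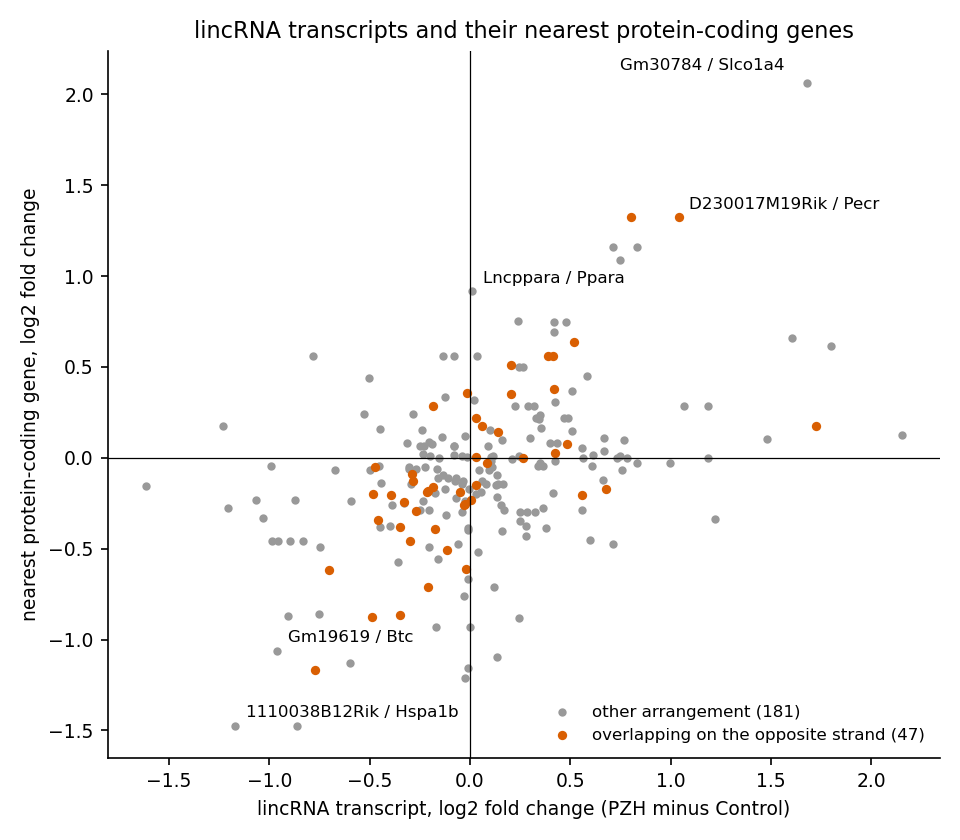
Log2 fold change (PZH minus control) of each lincRNA transcript (x axis) against that of its nearest protein-coding gene (y axis) for the 228 members with a listed neighbour, with the 47 opposite-strand overlaps in orange. Of the orange points 39 lie in the quadrants of equal sign, Gm30784 with Slco1a4 lies at the upper right and 1110038B12Rik with Hspa1b at the lower left.

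Members also lay near each other. There were 38 pairs of member genes within 200 kb. They were drawn from 49 gene symbols, so genes recur among the pairs, and a pair joins genes that are both named C730027H18Rik. Taken singly, 19.2% of the members were higher and 15.8% lower by adjusted p. Of the 38 pairs, 23 had the same sign, and both passed in 5 pairs, all 5 with the same sign. These were Gm47467 with Gm46430, Gm49607 with Gm26744, and 1810059H22Rik with Gm15408, which were higher, and Wincr1 with AL805899.1 and Gm45151 with 4732496C06Rik, which were lower. The last pair lies 1.1 kb apart, and 4732496C06Rik measured 0.244 to 1.03 FPKM in PZH mice (median 0.355) and 0.892 to 2.84 FPKM in control mice (median 1.69), with a log2 fold change of −0.87 (adjusted p = 0.00251). Gm45151 and 4732496C06Rik both entered through the control mice, so both had to be lower and their shared sign was fixed by the selection. Wincr1 also entered through the control mice, and Gm47467 through the PZH mice, so the sign of each was fixed as well. Whether pairs passed together more often than the shares of single members would give was not tested.

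Of the member genes, 12 hold a total of 25 annotated miRNA hairpins, 14 of them within an exon and 6 within an intron of the most abundant member transcript. These host genes were singled out after their values were seen, and the miRNAs themselves were not measured. Of the 12 hosts, 5 passed the test. Over all members, 19.2% were higher and 15.8% lower by adjusted p, against 12.2% and 8.38% of all long non-coding transcripts. For the 5 hosts that passed, a selection of their mature miRNAs is given from RefSeq, 5′ to 3′, with the other arm of most hairpins left out. The seed (bases 2 to 8, which pair with the target) is in capitals, and a let-7 sequence of hosts that did not pass follows.
miR-101a-3p: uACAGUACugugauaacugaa
miR-17-5p: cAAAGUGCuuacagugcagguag
miR-20a-5p: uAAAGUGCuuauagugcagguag
miR-18a-5p: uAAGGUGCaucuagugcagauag
miR-19a-3p: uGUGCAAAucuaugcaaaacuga
miR-19b-3p: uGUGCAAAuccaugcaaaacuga
miR-92a-3p: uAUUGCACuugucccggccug
miR-31-5p: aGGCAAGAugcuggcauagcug
miR-29b-3p: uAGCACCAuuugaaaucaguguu
miR-29c-3p: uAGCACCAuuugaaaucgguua
miR-142a-5p: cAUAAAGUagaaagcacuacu
miR-142a-3p: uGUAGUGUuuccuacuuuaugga
let-7a-5p: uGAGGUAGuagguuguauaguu

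By seed, miR-17-5p and miR-20a-5p share AAAGUGC, miR-19a-3p and miR-19b-3p share GUGCAAA, and miR-29b-3p and miR-29c-3p share AGCACCA, while miR-18a-5p differs from the first pair within the seed. E130102H24Rik, whose exon holds Mir101a (chr4:101346945-101347027), was the only host that was higher. It ranged from 2.35 to 4.05 FPKM in PZH mice (median 3.72) and from 1.59 to 3.07 FPKM in control mice (median 1.88), overlapping slightly, with a log2 fold change of 0.56 (adjusted p = 0.00715). Mir17hg, whose exons hold 6 hairpins of the miR-17 to miR-92a cluster on chr14, was at 0.786 to 2.18 FPKM (median 1.07) with PZH and 1.74 to 3.10 FPKM (median 2.45) without, also overlapping. Its log2 fold change was −0.65 (SE 0.14, adjusted p = 0.00516). AL805899.1, with Mir31 in an exon (chr4:88910557-88910662), was apart between the groups at the levels given beside Wincr1, by −0.61 on the log2 scale (SE 0.10, adjusted p = 0.00109).

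A330023F24Rik spans Mir29b-2 and Mir29c, which lie beyond the end of its member transcript. That transcript was at 1.60 to 2.42 FPKM (median 1.72) in PZH mice and 1.92 to 3.53 FPKM (median 3.04) in control mice, overlapping, with a log2 fold change of −0.48 (adjusted p = 0.00594). Mir142hg has its hairpin in an intron. The other 7 hosts did not pass. The let-7 hosts 6720427I07Rik and Lncppara, whose 5 mature 5p sequences share the seed GAGGUAG, had log2 fold changes of −0.04 and 0.01, and 6720427I07Rik ranged from 4.85 to 7.24 FPKM (median 5.38) against 5.37 to 6.12 FPKM (median 5.88). Dleu2, the host of Mir15a and Mir16-1, had a value of 0.03 (adjusted p = 0.901), and 3110039I08Rik, the host of Mir100, Mir125b-1 and Mirlet7a-2, one of −0.25 (adjusted p = 0.0674).

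**Figure D5:**
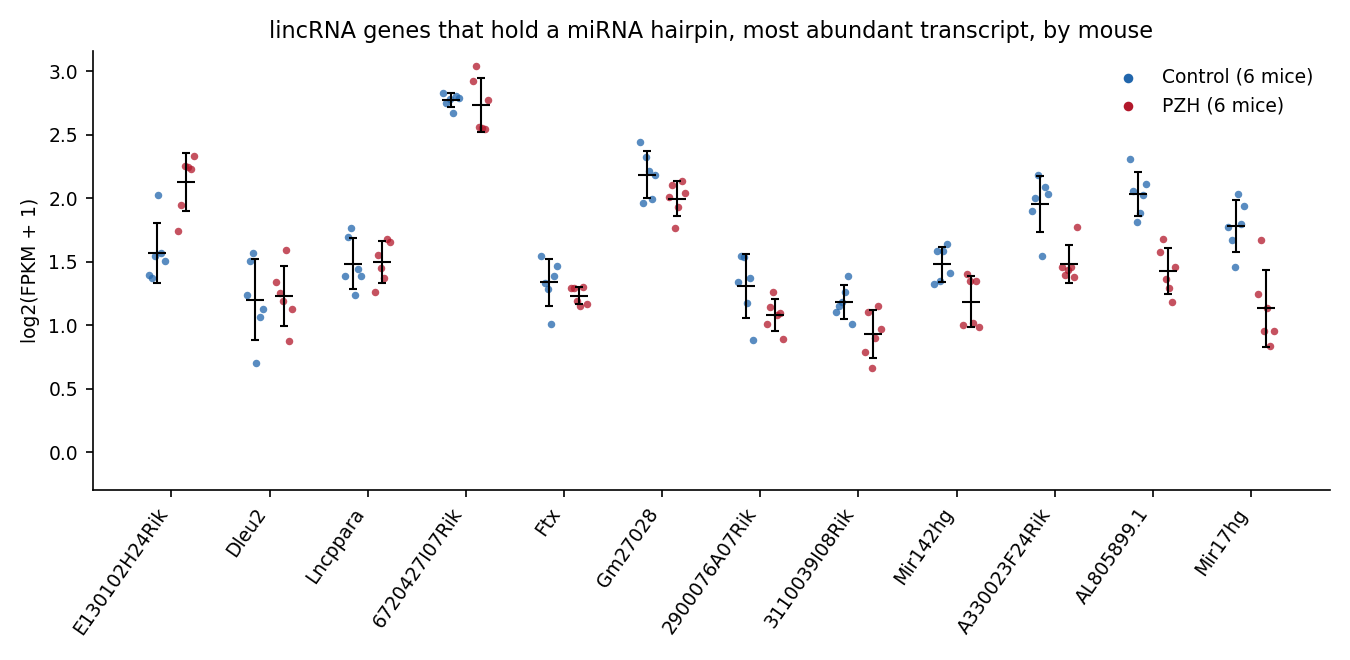
Level of the most abundant member transcript of the 12 lincRNA genes that hold a miRNA hairpin, as log2(FPKM + 1), in each of the 6 control mice (blue) and 6 PZH mice (red), with the mean and SD of each group as black bars. E130102H24Rik at the left is higher in PZH mice, Mir17hg and AL805899.1 at the right are lower, and the red and blue points of 6720427I07Rik and Lncppara lie over each other.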

How the data were processed

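Total RNA of 12 livers was sequenced from a strand-specific library with reads of 150 bp. Per the study's methods, the authors trimmed reads with Trimmomatic, aligned them to GRCm38 with HISAT2 2.1.0 and assembled transcripts of Ensembl release 95 with StringTie 1.3.5. The deposited values are FPKM per transcript, 1 table for long non-coding and 1 for protein-coding transcripts. They hold no counts, so the depth behind a value is unknown and no counting interval is given.

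Members and gene lists were chosen with earlier results of these data known. Annotation came from GENCODE M21 (GRCm38), to which 1431 long non-coding transcripts were matched and 1 was not, and sequences came from RefSeq (GRCm38.p6). PZH and control mice (6 each) were compared by limma 3.58.1 in R 4.3.3 on log2(FPKM + 1), with p-values adjusted by Benjamini-Hochberg over the whole table. Protein-coding neighbours were fitted as sums per gene, adjusted over 14188 genes. The test behind the study's P is not given in the sources used here. A called transcript had a fold change of at least 2 and P under 0.05. Named were all called members, the 6 largest rises and falls among the other members with adjusted p under 0.05, the 6 members of highest mean, transcripts of a fixed list of lincRNAs with described roles, and those beside the threshold. Neighbour pairs, miRNA hosts and adjacent members named beyond that were chosen after their values were seen.

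On simulated data, drawn as independent normal values, the lncRNA fit recovered 97% of 200 transcripts changed by 1.5 on the log2 scale, with 8 false calls. The changed transcripts all had a mean of at least 1 FPKM. Most members that passed differed by less than 1 on that scale, and recovery at such sizes was not simulated. Samples that share a number did not deviate together, so the numbers were not used as pairs. Alternatives were another pseudocount, other thresholds for members, median-ratio and equal-sum scaling, other forms of the limma fit, sums per gene, other choices of neighbour and leaving out each mouse. Leaving out PZH mouse 2 and control mouse 2 together was added after the data were seen.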

Additional observations from a re-analysis of the deposited data

Results flagged for a closer look

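Of 120 groups of 6 mice examined (60 named transcripts in each treatment), 8 held a mouse that stood far from the other 5 by Dixon's criterion, and chance gives about 1 in 20. In the control group, Gm5524 was at 1.07 FPKM in mouse 1 and at 2.64 to 3.83 FPKM in the others, and the changed Gm49668 transcript was at 0.436 FPKM in mouse 3 and at most 0.0373 FPKM in the others. In the PZH group, mouse 2 stood apart in Wincr1 (0.394 FPKM, the others at most 0.0587), in a 2310001H17Rik transcript (0.582 FPKM, the others 1.54 to 2.21) and in the most abundant Gm8883 transcript (10.1 FPKM, the others 6.71 to 7.75). In each of these 3 transcripts the value of PZH mouse 2 lay on the side of the control group. PZH mouse 1 was low in the main BC024386 transcript (10.6 FPKM, the others 13.8 to 15.1), PZH mouse 3 was low in another Gm8883 transcript (2.58 FPKM, the others 3.40 to 3.61) and PZH mouse 4 was high in 1 Lncpint transcript (3.45 FPKM, the others 0.496 to 0.773).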

How the results depend on the processing

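With a pseudocount of 0.1, 31 members were called higher and 18 lower, in place of 14 and 6. Equal-sum scaling gave 10 called lower, as did leaving out PZH mouse 2 and control mouse 2 together. With members from a mean of 2 FPKM the counts were 8 higher and 3 lower by fold, and 23 higher and 22 lower by adjusted p. With members of at least 1 FPKM in each group they were 4 and 3 by fold, and 27 were higher by adjusted p, while a minimum of 0.5 FPKM gave 87 higher. Median-ratio scaling moved the median log2 fold change of the members to 0.12 and the neighbours to 38 higher and 30 lower. Leaving out each mouse gave 5 to 10 members called lower and 13 to 15 called higher, 46 to 59 higher and 35 to 47 lower by adjusted p, and 18 to 23 higher and 39 to 52 lower neighbours. The cause of these shifts was not tested, apart from the smaller or larger sets of members.

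Same-numbered mice had deviations that correlated by −0.103 to 0.129, and 2 of 6 PZH mice were closest to the control mouse of their own number, so the numbers did not pair the mice. A replicate block nevertheless gave 53 members higher and 39 lower by adjusted p, 14 and 6 called by fold, and 23 higher and 46 lower neighbours, and the call of Gm15611 missed an adjusted p of 0.05 (0.0703).

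For the 60 named transcripts, 1109 of the values under 20 other settings kept their direction and side of the threshold, 40 lost and 13 gained the threshold, and 38 changed sign, all of the last in transcripts that did not pass. After equal-sum scaling the log2 fold change was −0.0033 for Dleu2, −0.028 for 2900097C17Rik and −0.0086 for a Lncpint transcript (ENSMUST00000231083). After median-ratio scaling it was 0.084 for 1810044D09Rik, 0.0055 for Ftx, 0.022 for Gm42047, and 0.042, 0.044, 0.012 and 0.031 for 4 Lncpint transcripts. Without 1 mouse at a time, the log2 fold change ranged from −0.070 to 0.10 for Dleu2, from −0.050 to 0.043 for 1810044D09Rik and from −0.27 to 0.052 for Gm42047. Over the Lncpint transcripts these ranges were −0.036 to 0.27, −0.31 to 0.41, −0.12 to 0.15, −0.13 to 0.026, −0.19 to 0.044, −0.20 to 0.051 and −0.20 to 0.046. FPKM without counts gives no depth, so the precision of members near 1 FPKM rests on the spread between mice alone.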

Other observations

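A few members reached the threshold through 1 or 2 mice. Gm20649 was at 17.2 FPKM in PZH mouse 3 and listed at 0 in all 6 control mice, with a log2 fold change of 0.76 (adjusted p = 0.416). Gm12840 was at 4.58 FPKM in PZH mouse 5 and 19.4 FPKM in control mouse 3 and was listed at 0 in the other 10 mice. In another pattern, a C730027H18Rik transcript (ENSMUST00000219181) was at 0.27 and 0.29 FPKM in control mice 1 and 5, at 3.28 to 4.72 FPKM in the other control mice and at 3.84 to 5.0 FPKM in the PZH mice.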
